A study of Schizosaccharomyces pombe with 4 samples.

Results

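The left end of chromosome I of the fission yeast Schizosaccharomyces pombe was described with the 324 tiles that the array places on chromosome I at positions 0 to 100000, of 41551 tiles in all. Position alone chose the tiles, and no measured value was used. H3K9me3, the trimethyl mark on lysine 9 of histone H3, was read in 4 groups with 1 array each. These were clr3-CDx2 cells with tetR-clr4 OFF, clr3-CDx2 cells with tetR-clr4 ON, wild-type (wt) cells with tetR-clr4 OFF and wt cells with tetR-clr4 ON. All 4 groups carry tetR-clr4, a fusion of the bacterial Tet repressor to the H3K9 methyltransferase Clr4, and all passed through 20 thiamine-free generations and 5 generations with 5-fluoroorotic acid (850 µg/ml) at 32 °C. OFF cells then went through 14 more generations with thiamine (5 µg/ml) and tetracycline (2.5 µg/ml), and ON cells were fixed before that step. The effect of the switch, the later harvest and any end of the drug treatment cannot be told apart. The labels do not explain clr3-CDx2 beyond the gene name.

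Fission yeast chromosomes I and II end in subtelomeres, gene-poor stretches next to the telomere repeats that are packed into heterochromatin. Clr4 places H3K9 methylation there, the HP1 protein Swi6 binds it, and the histone deacetylase Clr3 removes acetyl groups from histones of the same chromatin. The outermost genes, called tlh, encode RecQ-type helicases and hold sequence related to the centromeric repeats, from which the RNA interference machinery can start methylation, while the telomere-bound protein Taz1 offers a second entry point. Further inwards the mark gives way to gene-containing chromatin.

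The value of a tile is the log2 ratio of precipitated DNA (ChIP, Cy5) to whole-cell extract DNA (input, Cy3), less the median tile of its array, so that 0 is the typical tile and 1 is 2-fold above it. Of the 324 tiles, 290 were free of scanner marks on all 4 arrays and were used, 127 of them in the outer 50 kb and 163 in the inner 50 kb. Of the 34 marked tiles, 27 lay in the first 20 kb. No tile was saturated, and none in the region was dim. The scanner software put the median error of a tile at 0.21 to 0.22 (log2) and hence that of a difference between arrays at 0.30 to 0.31. With 1 array per group there is no spread between replicates, no test could be made, and every difference given here compares 2 arrays rather than 2 conditions. A lower value in such bulk samples may reflect fewer cells with the mark or less of it per cell, which cannot be told apart. The clr3 gene on chromosome II read -1.32 in clr3-CDx2 OFF and -1.39 in clr3-CDx2 ON, against 0.65 in wt OFF and 0.55 in wt ON. The arrays thus paired by labelled genotype at this gene. Since the labels do not explain clr3-CDx2, no value was predicted there, and the labels were not tested by it.

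Much of the left end is not unique in the genome. By their names on the array or by 31-mers of the ASM294v3 reference assembly, 168 of the 324 tiles were repeated, against 4.27% of all tiles. Their copies lay mostly at the other chromosome ends: 115 tiles had a copy in the right 100 kb of chromosome II, 90 in the left 100 kb of chromosome II and 53 in the right 100 kb of chromosome I. Among used tiles 119 of 127 in the outer 50 kb were repeated, and 16 of 163 in the inner 50 kb. A repeated tile reads all its copies together, so its value cannot be assigned to the left end of chromosome I alone. The 8 used tiles without another copy in the outer 50 kb lay at 13.5 to 15.6 kb and at 22.8 and 23.1 kb. Between 23.1 kb and 50.1 kb no used tile was unique.

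Sequence shared with the right end of chromosome I came in 4 blocks of the reference. They were 4.11 kb, 6.80 kb, 7.19 kb and 0.492 kb long. On the array's scale, after the placement described with the processing, they began at 9388, 16633, 29247 and 60614 and ended at 13495, 23430, 36432 and 61105. The inner edge of the third block is printed here because the profile falls at this place, with the 60 shared bases in capitals and the 60 bases inward of them in lower case. The left-end copy is chrI:35573-35692 of ASM294v3 on the plus strand, and the right-end copy is chrI:5559311-5559430 on the minus strand, both read towards the centromere.
left end: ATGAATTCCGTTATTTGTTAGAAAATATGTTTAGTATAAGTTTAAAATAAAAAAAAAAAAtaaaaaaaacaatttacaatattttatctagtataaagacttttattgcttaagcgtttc
right end: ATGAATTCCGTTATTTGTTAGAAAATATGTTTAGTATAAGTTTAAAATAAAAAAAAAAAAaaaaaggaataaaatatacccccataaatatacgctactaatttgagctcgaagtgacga
The capitals matched at 60 of 60 positions and the lower-case parts at 23 of 60. On the left end the edge lies between genes, 654 bp after SPAC977.04 and 136 bp before SPAC977.05c. The fourth block lies in SPAC977.14c, annotated as an aldo-keto reductase, and its right-end counterpart is SPAC750.01 of the same annotated family. Its outer edge is printed below, with the bases of the exactly shared stretch in capitals, at chrI:59754-59873 on the plus strand and chrI:5556610-5556729 on the minus strand.
left end: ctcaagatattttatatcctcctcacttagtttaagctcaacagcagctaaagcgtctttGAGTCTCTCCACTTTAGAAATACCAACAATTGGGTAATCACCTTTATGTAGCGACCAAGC
right end: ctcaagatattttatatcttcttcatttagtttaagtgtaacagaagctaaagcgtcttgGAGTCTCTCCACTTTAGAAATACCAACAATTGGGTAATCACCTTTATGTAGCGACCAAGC
Here the lower-case parts still matched at 52 of 60 positions, so the resemblance goes on outward in a less exact form.

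H3K9me3 was highest next to the chromosome end on all 4 arrays and lower further in, but it did not fall evenly. Both clr3-CDx2 arrays rose from the 20 to 30 kb bin to the 30 to 40 kb bin. Over the first 10 kb the median tile read 5.53 in clr3-CDx2 OFF, 4.04 in clr3-CDx2 ON, 5.43 in wt OFF and 4.52 in wt ON. Over 10 to 20 kb it read 5.35, 3.55, 4.64 and 3.00 in the same order of arrays, over 20 to 30 kb 3.25, 1.73, 1.99 and 1.20, and over 30 to 40 kb 3.81, 2.15, 1.59 and 0.80. Over 40 to 50 kb the medians had dropped to 1.33 in clr3-CDx2 OFF, 0.49 in clr3-CDx2 ON, 0.87 in wt OFF and 0.51 in wt ON. The furthest 10 kb bin with a median of at least 1 was thus 40 to 50 kb in clr3-CDx2 OFF, 30 to 40 kb in clr3-CDx2 ON and wt OFF, and 20 to 30 kb in wt ON.

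**Figure D1:**
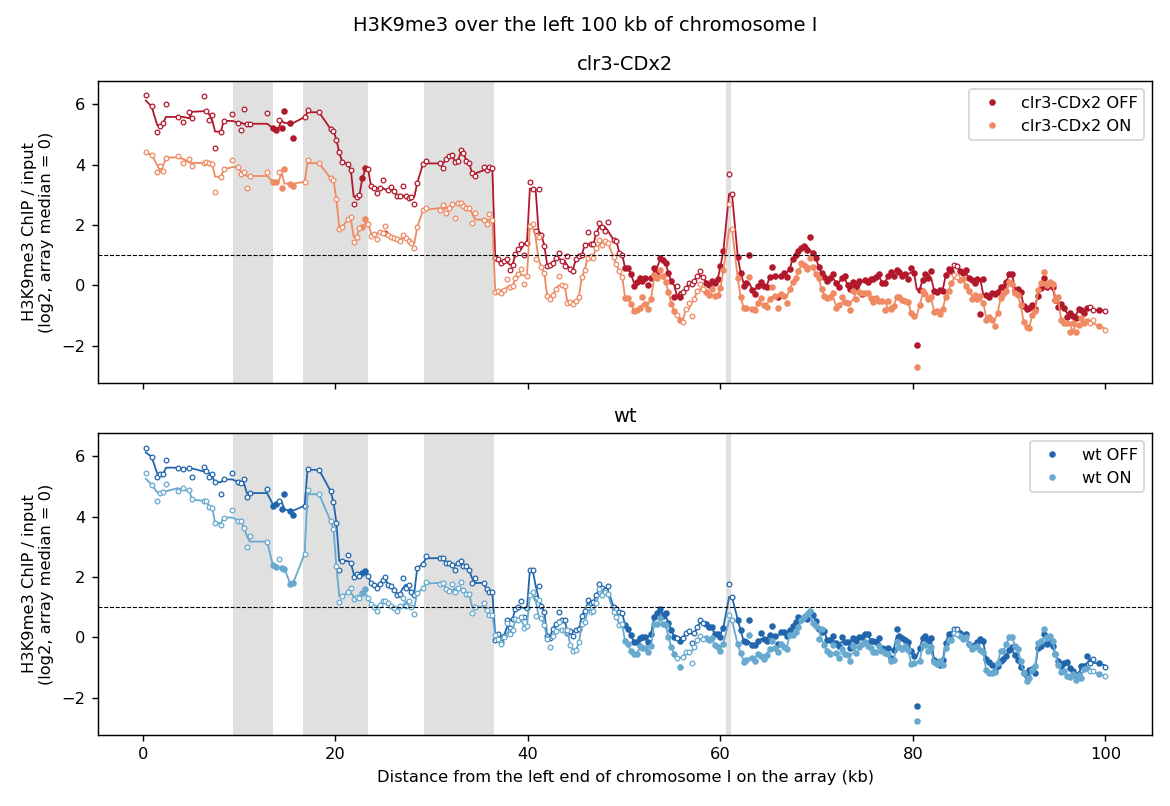
H3K9me3 ChIP over input (log2, array median at 0) of each used tile against its distance from the left end of chromosome I in kb, with clr3-CDx2 arrays in the upper and wt arrays in the lower panel; filled points are unique tiles, open points repeated ones, lines are running medians of 3 tiles, the dashed line is the 2-fold level and grey bands are blocks shared with the right end. Both clr3-CDx2 arrays and wt OFF fall sharply after 36.3 kb, wt ON has already dropped to 0.76 there, and a narrow peak lies at 61 kb at the last grey band.

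In the outer 50 kb the median over 127 tiles was 3.50 in clr3-CDx2 OFF, 1.95 in clr3-CDx2 ON, 2.01 in wt OFF and 1.32 in wt ON. Tiles at 1 or more numbered 108, 91, 99 and 84 of 127 on these arrays, against 16.5%, 14.6%, 13.2% and 12.6% of all tiles. In the inner 50 kb the medians were 0.16 in clr3-CDx2 OFF, -0.43 in clr3-CDx2 ON, -0.10 in wt OFF and -0.38 in wt ON, with 11, 2, 2 and 0 of 163 tiles at 1 or more, which is below the share of all tiles on each array. The last 10 kb, at 90 to 100 kb, read -0.72, -1.11, -0.83 and -1.07.

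The decline over the outermost stretch differed between arrays. From the first 6 kb to the 7 tiles at 13.5 to 15.6 kb, 6 of which are unique, the median dropped by 0.34 in clr3-CDx2 OFF, by 0.71 in clr3-CDx2 ON, by 1.23 in wt OFF and by 2.56 in wt ON. All 10 tiles of the first 6 kb are repeated, so this drop cannot be assigned to the left end alone. The wt ON array read 2.29 at 13.5 to 15.6 kb and climbed to 4.89 at the repeated tile at 17.1 kb. The other 3 arrays read 5.22, 3.42 and 4.36 at 13.5 to 15.6 kb and 5.8, 4.15 and 5.59 at 17.1 kb.

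The input signal itself was low near the end, most of all where the ratio was high. Over the first 6 kb the input, relative to its own array median, was -1.95 in clr3-CDx2 OFF, -1.01 in clr3-CDx2 ON, -1.84 in wt OFF and -1.44 in wt ON. Over 13.5 to 15.6 kb it was -2.08, -0.82, -1.32 and -0.20. At 20.4 to 36.3 kb it was -0.76 in clr3-CDx2 OFF and 0.00, 0.08 and 0.25 on the other 3 arrays. Low input raises the ratio at a given ChIP signal, so the comparisons are also given for the ChIP channel alone and for the input channel alone.

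Domains were runs of at least 5 tiles at 1 or more after a running median of 3 tiles. In clr3-CDx2 OFF 4 domains covered 46.2 kb, in clr3-CDx2 ON 2 domains covered 37.8 kb, in wt OFF 3 domains covered 40.8 kb and in wt ON 3 domains covered 36.3 kb. On 3 of the arrays the first domain ran without a break from the first tile, at 300, to 36300. In wt ON it ended at 25800 and a second domain ran from 26700 to 35400. A short domain around 47 to 48 kb, over the phospholipase gene plb4, was called on all 4 arrays at the 2-fold level. It ran from 45600 to 49800 in clr3-CDx2 OFF, from 47100 to 48300 in clr3-CDx2 ON, from 46200 to 48900 in wt OFF and from 47100 to 48300 in wt ON. With centring on the mode it was not called in clr3-CDx2 ON or wt ON, where the innermost domain ended at 36.3 and 33.9 kb. At a domain threshold of 1.5 it was not called in clr3-CDx2 ON, wt OFF or wt ON, with innermost ends at 36.3, 36.3 and 33.3 kb. A further one near 40 kb was called in clr3-CDx2 OFF, from 38700 to 41700, and in wt OFF, from 40200 to 41400. The 5 tiles at 40.2 to 41.4 kb had medians of 3.18 in clr3-CDx2 OFF, 1.59 in clr3-CDx2 ON, 1.71 in wt OFF and 1.23 in wt ON, so the rise was present on each array. The innermost domain, from 67800 to 69600 in clr3-CDx2 OFF, consisted of 7 unique tiles inside SPAC977.17, a gene of the MIP family of membrane channels. These tiles had medians of 1.16 in clr3-CDx2 OFF, 0.62 in clr3-CDx2 ON, 0.66 in wt OFF and 0.58 in wt ON, and no domain was called there on the last 3 arrays. The call in clr3-CDx2 OFF was lost after scaling to equal pericentromeres, with the innermost end at 49.2 kb, and at a threshold of 1.5, with the end at 48.9 kb. At a threshold of 0.5 the innermost domain ended at 70.2 kb in clr3-CDx2 OFF, 69.6 kb in clr3-CDx2 ON and 69.9 kb in wt OFF, against 49.2 kb in wt ON.

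The sharpest edge lay between the tiles at 36300 and 36600. In clr3-CDx2 OFF the level was 3.88 at the first and 0.92 at the second of these tiles. In clr3-CDx2 ON it was 2.15 and -0.23, in wt OFF 1.52 and -0.10, and in wt ON 0.76 and 0.08. The step between neighbouring tiles of the region had a median size of 0.15 to 0.21 over 265 steps. This step was the largest fall of the region in both clr3-CDx2 arrays. It was second in wt OFF, after a single low tile at 80.4 kb, and in wt ON it was not among the 3 largest.

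The end of the sequence shared with the right end of chromosome I, printed above, was placed at 36432, between the same tiles. Tile spacing and the estimated placement do not allow the fall to be set at a base. Over 1.5 kb outward of the placed edge, 4 tiles had medians of 3.89 in clr3-CDx2 OFF, 2.17 in clr3-CDx2 ON, 1.55 in wt OFF and 0.84 in wt ON. Over 1.5 kb inward, 5 tiles had medians of 0.86, -0.17, 0.04 and 0.02. None of these 5 tiles is unique, so their values too cannot be assigned to the left end alone. At the right end of the chromosome the same edge, placed by a separate estimated offset given with the processing, showed no such fall. There the 4 tiles of the shared side read 3.82, 2.31, 1.76 and 1.06, and the 5 tiles inward of it, all unique to the right end, read 4.44 in clr3-CDx2 OFF, 2.67 in clr3-CDx2 ON, 1.82 in wt OFF and 0.70 in wt ON. Only wt ON was lower on the inward side there. The shared tiles read both ends together, so the level of the shared stretch at the left end cannot be told apart from that at the right end.

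**Figure D2:**
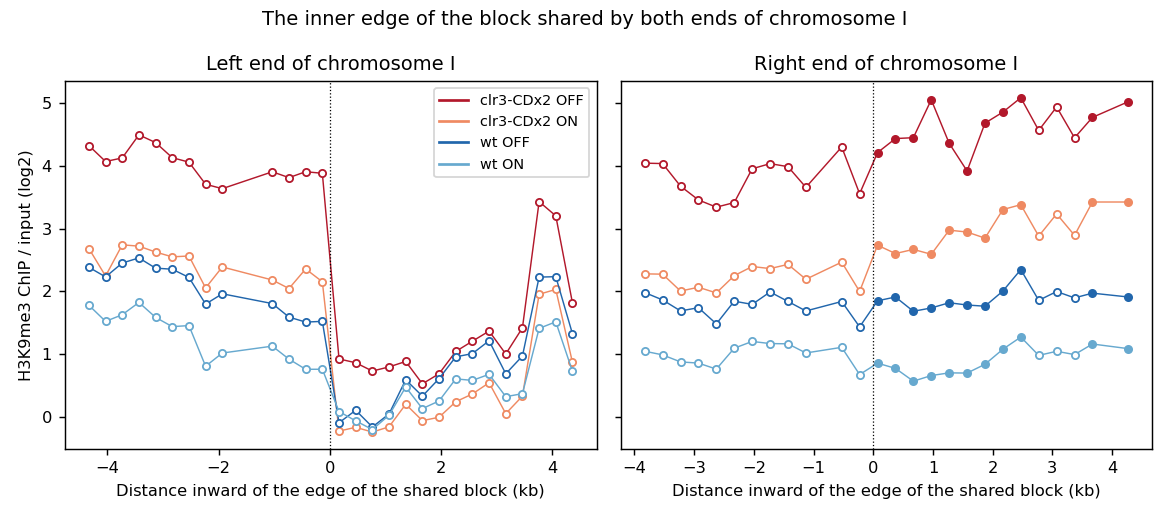
H3K9me3 ChIP over input (log2) of the tiles within 4.5 kb of the inner edge of the shared block, against the distance inward of the edge in kb, at the left (left panel) and right (right panel) end of chromosome I for the 4 arrays; filled points are unique tiles and open points repeated ones. All 4 arrays fall at the edge on the left end, from 3.88 to 0.92 in clr3-CDx2 OFF, while on the right end 3 arrays are higher inward of the edge and wt ON is lower, at 0.70 against 1.06. The dotted line marks the edge.

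Other shared and unshared stretches were compared in the same way, with classes that were drawn up after the values were seen. Between 20.4 and 36.3 kb, 25 tiles with a copy at the right end of chromosome I had medians of 4.04 in clr3-CDx2 OFF, 2.36 in clr3-CDx2 ON, 2.35 in wt OFF and 1.45 in wt ON. In the same stretch 19 tiles with copies at chromosome II ends only read 3.17, 1.63, 1.75 and 1.07, so they too were above the 2-fold level. The 2 unique tiles at 22.8 and 23.1 kb read 3.73, 2.08, 2.18 and 1.52 as medians. From 36.6 kb to 50 kb, 43 tiles with copies at chromosome II ends only read 1.06, 0.32, 0.84 and 0.44.

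A narrow peak, at 60.9 to 61.2 kb in used tiles, stood between low flanks and overlapped the fourth shared block. The block was placed at 60614 to 61105, so the used tile at 61.2 kb lies inward of its placed end. A copy at the right end was found for the used tile at 60.9 kb only. Its 2 used tiles had medians of 3.36 in clr3-CDx2 OFF, 2.28 in clr3-CDx2 ON, 1.56 in wt OFF and 0.66 in wt ON. The 5 nearest unique tiles on its outer side read 0.20, -0.13, 0.12 and -0.25, and the 5 on its inner side 0.41, -0.39, 0.23 and -0.53. Among used tiles the peak was too short to be called a domain. The marked tiles at 60.6 and 61.5 kb, which were left out, read 4.53 and 3.39 in clr3-CDx2 OFF. The order of arrays was that of the right end of the chromosome, and also that of the left end at 30 to 40 kb.

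In clr3-CDx2 cells, OFF against ON, the H3K9me3 ratio was higher on 279 of 290 tiles, 126 of 127 in the outer and 153 of 163 in the inner 50 kb. Of all tiles on the array 58.7% were higher. The exceptions include the tiles at 93.0 to 95.1 kb. By at least 2-fold, 107 of 290 tiles were higher and 0 lower, against 2.95% and 0.779% of all tiles. After scaling to equal pericentromeres 55 were higher and 2 lower, and in the ChIP channel alone 25 were higher. The shares of all tiles belong to the unscaled ratio, here and in the comparisons below, and not to the scaled or ChIP-only counts. The median difference was 1.49 over the outer 50 kb, where 120 of 127 tiles also had a lower input signal in OFF, and 0.62 over the inner 50 kb. Over the whole array the input signal was lower in OFF on 21149 of 40565 tiles. In the ChIP channel alone the outer difference was 0.72, and in the input channel it was -0.64. Over the first 20.1 kb the ratio differed by 1.64, the ChIP signal by 0.66 and the input by -1.01, with input lower in OFF on 37 of 37 tiles. Over the inner 50 kb, where input moved by -0.07, the ChIP signal alone was higher by 0.49. The part of the input in the ratio was not tested further.

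The gap between the clr3-CDx2 arrays was not particular to the left end. The median over 360 pericentromeric tiles was 4.36 in clr3-CDx2 OFF and 2.76 in clr3-CDx2 ON, against 4.50 in wt OFF and 3.56 in wt ON. With each array scaled to the same pericentromeric median, the outer difference between clr3-CDx2 OFF and ON was 0.29 in place of 1.49, and that between wt OFF and ON was 0.26 in place of 0.71.

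In wt cells, OFF against ON, 25 of 290 tiles were higher by at least 2-fold and 0 lower, against 1.06% and 0.752% of all tiles. Of these tiles 20 lay in the first 20 kb. After pericentromeric scaling 8 tiles were higher, and in the ChIP channel alone also 8. The median difference was 0.71 over the outer 50 kb and 0.33 over the inner 50 kb. In the ChIP channel alone it was 0.42 over the outer 50 kb and 0.25 over the inner 50 kb, and in the input channel -0.21 and -0.05. The difference varied along the outer 50 kb. The 6 unique tiles at 13.5 to 15.6 kb differed by 2.15, and the 2 at 22.8 and 23.1 kb by 0.66. The tile at 14.1 kb, counted as repeated but without a found copy at the other ends of chromosomes I and II, differed by 1.92. At the repeated tile at 17.1 kb wt OFF read 5.59 and wt ON 4.89, so position and repetition cannot be told apart. Over the 7 tiles at 13.5 to 15.6 kb the ratio differed by 2.06, the ChIP signal by 1.004 and the input by -1.08.

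Between genotypes in OFF, clr3-CDx2 against wt, 54 of 290 tiles were higher by at least 2-fold and 0 lower, against 1.31% and 0.727% of all tiles. Between 20.4 and 36.3 kb the median difference was 1.56, with 0.71 in the ChIP channel and -0.80 in the input channel. It was 0.24 over the first 20.1 kb, 0.44 from 36.6 to 50 kb and 0.26 over the inner 50 kb. The limits 20.4 and 36.3 kb were set by a fall in wt OFF and a domain end in clr3-CDx2 OFF, the arrays compared here. Fixed bins do not depend on this choice. Over 0 to 10, 10 to 20, 20 to 30, 30 to 40 and 40 to 50 kb the medians were 0.15, 0.76, 1.42, 1.675 and 0.45. Among the 46 tiles at 20.4 to 36.3 kb, 42 were higher by at least 2-fold. The tile at 25.2 kb was the single one with a value below that of wt OFF, at 1.73 in clr3-CDx2 OFF against 2.01 in wt OFF. In ChIP signal alone 8 tiles of the region passed the 2-fold level.

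Between genotypes in ON, clr3-CDx2 against wt, 19 of 290 tiles were higher and 2 lower by at least 2-fold, against 0.473% and 0.826% of all tiles. The first 10 kb differed by -0.61, 10 to 20 kb by 0.58, 20.4 to 36.3 kb by 0.70 and 36.6 to 50 kb by -0.11. The median over the outer 50 kb was 0.11 and over the inner 50 kb -0.03. In the outer 50 kb the ChIP channel alone differed by 0.08 and the input by -0.05. After pericentromeric scaling the outer difference was 0.91 in place of 0.11, with 59 tiles higher and 1 lower, and in the ChIP channel alone 3 tiles were higher and 1 was lower. The 6 unique tiles at 13.5 to 15.6 kb differed by 1.29 and the 2 at 22.8 and 23.1 kb by 0.56.

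The change with the switch was larger in clr3-CDx2 than in wt by 0.65 over the outer 50 kb and by 0.28 over the inner 50 kb, taken as the difference of the 2 differences on each tile. By this measure 22 of 290 tiles were higher and 1 was lower by at least 2-fold, against 1.81% and 0.557% of all tiles. In the ChIP channel alone the value was 0.30 over the outer 50 kb, and in the input channel -0.30. It was -0.37 over the 6 unique tiles at 13.5 to 15.6 kb and 0.99 over the 2 unique tiles at 22.8 and 23.1 kb. After pericentromeric scaling it was -0.029 over the outer 50 kb, with 7 tiles higher and 9 lower. Over the inner 50 kb it was 0.40 after that scaling.

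**Figure D3:**
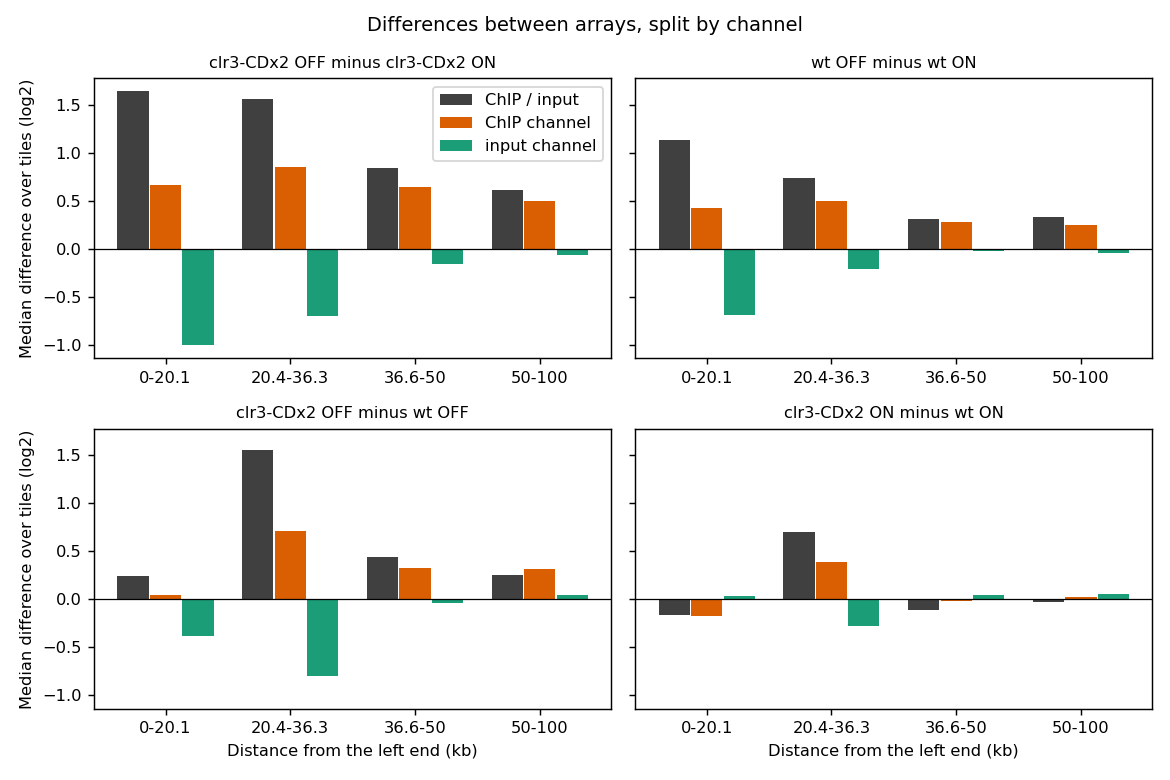
Median difference between arrays over tiles (log2) in 4 stretches by distance from the left end in kb, for OFF against ON in clr3-CDx2 and wt (upper panels) and clr3-CDx2 against wt in OFF and ON (lower panels); bars show the ChIP over input ratio, the ChIP channel and the input channel. Input differences reach -1.01 over the first 20.1 kb of clr3-CDx2 OFF against ON and are close to 0 over 50 to 100 kb.

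Of 37 annotated protein-coding genes and pseudogenes in the left 100 kb, 30 had at least 2 used tiles, 15 in the outer and 15 in the inner 50 kb. A gene's value is the median of its tiles. The helicase gene tlh1, the outermost, had the highest mean level over the 4 arrays, with 5.56 in clr3-CDx2 OFF, 4.06 in clr3-CDx2 ON, 5.59 in wt OFF and 4.82 in wt ON over 10 tiles. Between genotypes it differed by -0.03 in OFF and by -0.76 in ON, and by 0.45 in ON after pericentromeric scaling. The pseudogenes SPAC212.10 and SPAC212.09c, next in order, read 5.62 and 5.45 in clr3-CDx2 OFF, 4.07 and 3.92 in clr3-CDx2 ON, 5.41 and 5.23 in wt OFF, and 4.42 and 3.97 in wt ON.

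The pseudogene SPAC212.07c was measured by 2 unique tiles and had the largest difference between wt OFF and wt ON among the 30 genes. It read 5.58 in clr3-CDx2 OFF, 3.62 in clr3-CDx2 ON, 4.47 in wt OFF and 2.02 in wt ON. The switch difference was 2.45 in wt and 1.96 in clr3-CDx2, but after pericentromeric scaling 1.62 in wt and -0.12 in clr3-CDx2. Its input read -1.89, -0.52, -1.12 and 0.11 on the 4 arrays, and the ChIP channel alone differed by 1.20 in wt and by 0.59 in clr3-CDx2.

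**Figure D4:**
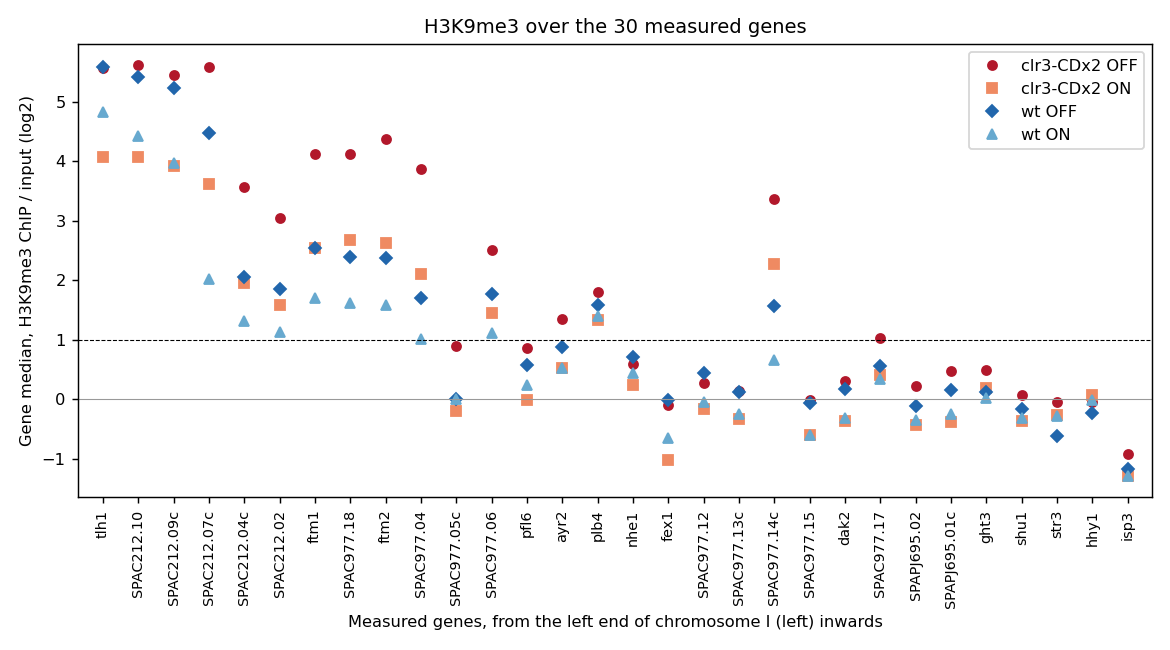
Median H3K9me3 ChIP over input (log2) of each of the 30 measured genes in their order from the left end inwards, with 1 point per array. The genes outward of SPAC977.05c lie above the dashed 2-fold line on all 4 arrays, and most of those inward of it lie below, with SPAC977.14c standing out.

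Genes at 1 or more numbered 15 of 30 in clr3-CDx2 OFF, 13 in clr3-CDx2 ON, 13 in wt OFF and 12 in wt ON, against 12.8%, 11.3%, 9.34% and 9.02% of 4957 measured genes of the genome. OFF against ON, 13 genes were higher by at least 2-fold and 0 lower in clr3-CDx2, against 1.55% and 0.323% of genes. In wt 2 were higher and 0 lower, against 0.585% and 0.686%. These were SPAC212.09c and SPAC212.07c. Between genotypes 8 genes were higher and 0 lower in OFF, against 1.07% and 0.202%, and 5 were higher and 0 lower in ON, against 0.424% and 0.222%. Scaled to equal pericentromeres, 2 genes were higher in clr3-CDx2 OFF against ON and 1 in wt OFF against ON, while 8 were higher between genotypes in OFF and 8 in ON. In the ChIP channel alone 0 genes passed the 2-fold level in clr3-CDx2 OFF against ON or between genotypes, and 1 passed in wt OFF against ON.

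Of the 5 genes with the largest differences between genotypes in OFF, 4 lie just outward of the edge at 36.3 kb, and the third in order, SPAC977.14c, lies at 61 kb. SPAC977.04, the last gene before the edge, read 3.86 in clr3-CDx2 OFF, 2.11 in clr3-CDx2 ON, 1.70 in wt OFF and 1.02 in wt ON. The transmembrane genes ftm1 and ftm2 read 4.11 and 4.37 in clr3-CDx2 OFF, 2.54 and 2.62 in clr3-CDx2 ON, 2.55 and 2.37 in wt OFF, and 1.69 and 1.58 in wt ON, and SPAC977.18 between them 4.13, 2.68, 2.38 and 1.62. Against wt OFF, clr3-CDx2 OFF was higher by 2.16 at SPAC977.04, 2.00 at ftm2, 1.74 at SPAC977.18 and 1.56 at ftm1. SPAC212.04c and SPAC212.02, further out, were higher by 1.51 and 1.18. SPAC977.14c, the gene of the narrow peak, was higher by 1.80 in OFF and by 1.62 in ON. The first gene inward of the edge, SPAC977.05c, read 0.89 in clr3-CDx2 OFF, -0.20 in clr3-CDx2 ON, 0.00 in wt OFF and 0.01 in wt ON.

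Inward of the edge plb4 was the highest gene other than SPAC977.06 and SPAC977.14c, and it differed little between arrays. Its 7 tiles had medians of 1.81 in clr3-CDx2 OFF, 1.33 in clr3-CDx2 ON, 1.58 in wt OFF and 1.40 in wt ON, all of them repeated. SPAC977.17 read 1.03, 0.41, 0.57 and 0.35. The siderophore-iron transporter gene str3, the single gene that the annotation calls a transporter, read -0.05 in clr3-CDx2 OFF, -0.26 in clr3-CDx2 ON, -0.62 in wt OFF and -0.28 in wt ON. Some other genes are named after their values were seen. The sodium/proton antiporter gene nhe1 read 0.59, 0.24, 0.72 and 0.44 on the 4 arrays, and ght3, which encodes a gluconate symporter, 0.50, 0.19, 0.12 and 0.03. The fluoride channel gene fex1 read -0.10, -1.01, -0.01 and -0.65. The innermost gene, isp3, was the lowest by mean level of the 4 arrays, at -0.92, -1.28, -1.16 and -1.29.

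Beyond 50 kb the profile was a series of low waves that the arrays shared. Over 147 unique tiles of the inner 50 kb, tile levels correlated with those of wt ON at r = 0.85 in clr3-CDx2 OFF, 0.95 in clr3-CDx2 ON and 0.89 in wt OFF. These are descriptions across tiles of the same probes on 1 slide. The correlation with GC content was 0.22, 0.31, 0.17 and 0.32 in clr3-CDx2 OFF, clr3-CDx2 ON, wt OFF and wt ON.

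Set against the other ends of chromosomes I and II, the left end of chromosome I was the second most enriched in clr3-CDx2 and the most enriched in wt by the median of all used tiles of the outer 50 kb. In clr3-CDx2 OFF the outer median was 3.50 at the left end of I, 4.52 at the right end of I, 0.91 at the left end of II and 0.41 at the right end of II. In clr3-CDx2 ON these were 1.95, 2.85, 0.23 and -0.22. In wt OFF they were 2.01, 1.75, 0.66 and 0.65, and in wt ON 1.32, 0.87, 0.26 and -0.04. Over unique tiles only, 8 at the left and 88 at the right end of I, the rank in clr3-CDx2 was reversed. The left end then read 5.19 against 4.58 in clr3-CDx2 OFF, 3.32 against 2.96 in clr3-CDx2 ON, 4.22 against 1.42 in wt OFF and 2.03 against 0.70 in wt ON. The 8 left-end tiles lie near the chromosome end and do not sample the whole 50 kb. Domains covered 46.2 kb of the left end in clr3-CDx2 OFF, against 66.6 kb of the right end of I, where most tiles are unique, and 36.3 kb against 24.3 kb in wt ON. The difference between clr3-CDx2 and wt over the outer 50 kb was 0.69 in OFF and 0.11 in ON at the left end, against 2.92 and 2.08 at the right end of I. Since the ends share sequence, these values are not independent of each other, and the gap between ends has no test.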

How the data were processed

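H3K9me3 ChIP DNA, in Cy5, was hybridised with input DNA, in Cy3, to a custom array of 60-base tiles every 300 bp, 1 array per group, all on 1 slide and in 1 scan. Per the file headers, the authors' scanner files were made with Agilent Feature Extraction 12.0.3.1 and hold, per spot, a background-subtracted and dye-normalised processed intensity for each channel, a log10 ratio and its error score. The deposited matrix holds a log2 ratio, which equalled that of the processed signals within 0.01, uncentred. Other steps, and the genome build of the array, are not given in the sources used here.

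Here the log2 ratio was centred on each array's median, with no loess or quantile step. Tiles marked non-uniform or outlying on any array were left out. With 1 array per group, precision between replicates could not be estimated, and the effect of low input on it was not tested. Stretch limits were taken from domain ends, steps and unique tiles in these data. The left arm of chromosome I was placed on ASM294v3 by the offset at which input best followed GC content (-800 bp, r = 0.252, at most 0.030 further than 1 kb away). The right arm was placed in the same way (4500 bp, r = 0.264, at most 0.081 further than 1 kb away). Array positions are printed except for the sequences, which were read from the reference by a match between its own chromosome ends. Repeated tiles were those named so on the array or with 50% or more of their 31-mers found elsewhere. Genes are named in the text if they are tlh1, among the 8 highest, among the 5 largest rises or falls past 2-fold in a comparison, next to a domain's inner edge, or annotated as transporters; others are said to be chosen later or give a range or an order. Alternatives were another centring, background correction (normexp, limma 3.58.1), scaling, channel, domain rule and set of tiles. Shares of all tiles or genes past a level are given for the median-centred ratio only. Counts under the alternatives thus have no such background beside them. Domain calling was tested on simulated data. The region, lists and rules were chosen with earlier results of these data known.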

Additional observations from a re-analysis of the deposited data

Results flagged for a closer look

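The gene str3 differed between OFF and ON by -0.34 in wt and by 0.22 in clr3-CDx2, so that the arrays of the 2 genotypes moved in opposite directions. The gene SPAC977.05c, just inward of the edge at 36.3 kb, differed by 1.09 in clr3-CDx2 and by -0.0051 in wt. Neither difference between genotypes was tested, since each group has 1 array. The wt value of SPAC977.05c and both values of str3 are below or close to 0.30 to 0.31, the median error of a difference at 1 tile. The gene values are medians over 2 tiles at SPAC977.05c and 7 at str3. That error is thus not theirs, and it does not measure the spread between replicate arrays.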

How the results depend on the processing

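No paired analysis was possible because each group has 1 array, so that the groups share fewer than 2 replicate numbers. Centring on the mode shifted all OFF-minus-ON differences by 0.18 and raised the count of tiles higher in wt OFF from 25 to 41. With repeated tiles left out, 8 tiles remain in the outer 50 kb: outer medians were then 5.19 in clr3-CDx2 OFF, 3.32 in clr3-CDx2 ON, 4.22 in wt OFF and 2.03 in wt ON, the OFF-minus-ON difference in wt was 2.01, clr3-CDx2 minus wt in ON 1.06 and the genotype-by-switch value -0.25, domains covered 12 kb in clr3-CDx2 OFF and 9.9 kb on the other 3 arrays, whose innermost domain ended at 23.1 kb, and tiles higher numbered 13 and 6 (OFF minus ON in clr3-CDx2 and wt), 7 and 5 (clr3-CDx2 minus wt in OFF and ON) and 5 (genotype by switch), with 0 lower in the last 2. In the same order of comparisons, counts of tiles higher were 25, 8, 8, 3 and 6 in the ChIP channel alone, with 1 lower in clr3-CDx2 minus wt in ON and 0 in genotype by switch; the outer OFF-minus-ON difference in clr3-CDx2 was 0.72. At a 1.5-fold level they were 211, 98, 97, 41 and 94, with 1, 0, 2, 13 and 3 lower. Scaled to equal pericentromeres, the outer OFF-minus-ON difference in clr3-CDx2 was 0.29, clr3-CDx2 minus wt in ON 0.91, genotype by switch -0.029 and the outer level of clr3-CDx2 ON 2.68; tiles higher numbered 55 and 8 for OFF minus ON, 59 in ON and 7 in genotype by switch, with 2, 1 and 9 lower in clr3-CDx2 OFF minus ON, clr3-CDx2 minus wt in ON and genotype by switch. Under this scaling OFF minus ON in clr3-CDx2 reversed for tlh1 (-0.75), SPAC212.10 (-0.71), SPAC212.09c (-0.65), SPAC212.07c (-0.12), SPAC977.18 (-0.10) and SPAC977.14c (-0.21). Smaller OFF-minus-ON differences that also changed sign included plb4 (-0.25) in clr3-CDx2, and tlh1 (-0.42) and SPAC212.10 (-0.15) in wt. Normexp gave 1 tile lower for clr3-CDx2 minus wt in OFF and in ON and 4 in genotype by switch, and uncentred ratios gave 0 lower in ON and 2 in genotype by switch. Without tiles that have a copy at the right end of chromosome I, an alternative added after the data were seen, 69, 13, 29 and 7 tiles were higher in the first 4 comparisons. The cause of these changes was not tested beyond the fewer tiles of the last alternative and of the unique tiles. Genes past 2-fold, in the same order of comparisons, numbered 13, 2, 8, 5 and 2 higher and 0 lower. With repeated tiles left out they were 2, 1, 2, 1 and 0. Scaled to equal pericentromeres they were 2, 1, 8, 8 and 1, with 1 lower in genotype by switch. In the ChIP channel alone they were 0, 1, 0, 0 and 1. In wt OFF minus ON mode centring and normexp each gave 5, and normexp gave 1 lower in genotype by switch. In the other 307 values a log2 level or difference shifted by less than the log2 of 1.5-fold and a count or length by at most 1.5 times. Such shifts can turn a small difference, as for clr3-CDx2 minus wt in ON over the outer 50 kb, which was -0.05 without tiles that have a copy at the right end of chromosome I.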

Other observations

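A single tile at 80.4 kb was the lowest of the region on all 4 arrays, at -1.96 in clr3-CDx2 OFF, -2.69 in clr3-CDx2 ON, -2.27 in wt OFF and -2.77 in wt ON, while its neighbours lay between -0.998 and 0.43. Its input signal was 2.20, 2.65, 2.32 and 2.77 above the array median on the log2 scale. Its ChIP signal lay between -0.09 and 0.18 of the array median.

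In clr3-CDx2 OFF the tile at 25.2 kb read 1.73, between neighbours of 3.50 and 3.17, whereas in clr3-CDx2 ON, wt OFF and wt ON it read 1.97, 2.01 and 1.20, near its neighbours. Its input in clr3-CDx2 OFF was 0.45, against -0.37 and -0.57 in the neighbours. The tile at 87.0 kb read -0.96 in clr3-CDx2 OFF, between neighbours of 0.21 and 0.20, and -0.36, -0.04 and -0.41 on the other arrays.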
